A study of Mus musculus with 10 samples.

Results

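*Mymk*, *Mymx* and *Cdh15* are 3 genes of the myoblast, the mononucleated muscle precursor that fuses with its neighbours into the multinucleated myofibre. They were picked by symbol as surface proteins that act when myoblasts adhere and merge, matched to Ensembl identifiers, and make up 3 of the 53465 genes counted. All 3 passed the filter on low counts, which 16426 genes passed. The samples were pinna prominences, the forming outer ears, microdissected from mouse embryos at stage E14.5 (days after conception) and measured by bulk RNA-seq. The WT group held 5 wild-type embryos. The *mEC1*dup/dup group held 5 embryos in which CRISPR/Cas9 editing had placed an extra copy of the enhancer mEC1 on each allele, so that they carry 4 copies of mEC1 in place of 2. The study kept its mice on a C57BL/6 J background and counts each embryo as independent, and both groups are labelled E14.5. The insertion is in the germline, so every tissue of the prominence carries it, and the whole prominence mixes muscle with fibroblasts, cartilage, epidermis, vessels, nerve and blood.

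Fusion follows the exit of myoblasts from the cell cycle. MYOD and myogenin, the transcription factors encoded by *Myod1* and *Myog*, switch on the fusion machinery and the first contractile genes in the same window of differentiation. Myomaker, the multipass membrane protein of *Mymk*, is needed for the outer leaflets of both membranes to mix. Myomerger (also called myomixer or minion), the small membrane protein of *Mymx*, then drives opening of the fusion pore. M-cadherin, the calcium-dependent adhesion protein of *Cdh15*, holds myoblasts together and also marks satellite cells, the resident stem cells of muscle. The comparison of WT with *mEC1*dup/dup asks how the extra enhancer copies, which act on the homeobox gene *Hmx1*, go with gene expression in the forming ear, and here how the fusion step of its muscle compares between the genotypes.

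Positions are given on GRCm39. *Mymk* (ENSMUSG00000009214) lies on chromosome 2 from 26951627 to 26962228 on the minus strand, with 1569 bases of exon. The whole of it lies within the span of *Adamtsl2*, a gene on the plus strand, but no exonic base is shared between them. *Mymx* (ENSMUSG00000079471) lies on chromosome 17 from 45911239 to 45913028 on the minus strand, with 1743 bases of exon. The span of the long non-coding RNA *Gm56882*, on the plus strand, crosses it without a shared exonic base. *Cdh15* (ENSMUSG00000031962) lies on chromosome 8 from 123574705 to 123596048 on the plus strand, with 5183 bases of exon, and overlaps no annotated gene.

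Total counts per library ranged from 17461544 to 18462073 over both groups. *Hmx1*, which the knock-in is built to raise, was higher in every *mEC1*dup/dup library than in every WT library (log2 fold change 1.31, edgeR adjusted p = 0.000127). A pair of features of the libraries moved with the genotype, and they touch every comparison below. *Xist*, the RNA of the inactive X chromosome and therefore a mark of female embryos, had at most 5 counts in each WT library, 12812 to 19040 counts in *mEC1*dup/dup replicates 1 to 3, an intermediate 2096 in replicate 4 and 0 in replicate 5. The share of globin counts that fell on the embryonic globins (*Hba-x*, *Hbb-bh1*, *Hbb-y*) was 18.4% to 23.3% in WT and 32.5% to 35.6% in *mEC1*dup/dup. The groups did not overlap, so this share and the genotype cannot be told apart. Whether the groups differed in maturity within the labelled stage was not tested. *Hmx1* was called with *Xist* as a covariate (1.04, SE 0.12, edgeR adjusted p = 0.0166) and not with the globin share (0.34, SE 0.38, adjusted p = 0.921).

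None of the 3 fusion genes differed between the genotypes by more than the spread between embryos. *Mymk* had 29.8, 30.5, 30.8, 32.1 and 47.2 CPM (counts scaled to a common library size by edgeR's TMM factors) in WT replicates 1 to 5. It had 39.1, 31.5, 32.1, 30.0 and 39.9 CPM in *mEC1*dup/dup replicates 1 to 5. The ranges overlap, as they did for all 3 genes, where 5.07% of all genes tested had groups that did not: 4 of the WT embryos lie together at the low end, WT replicate 5 is the highest of all 10, and *mEC1*dup/dup replicates 1 and 5 lie between. The means were 34.1 ± 7.38 CPM in WT and 34.5 ± 4.60 CPM in *mEC1*dup/dup (SD, n = 5 each). The log2 fold change of *Mymk* was 0.02 (SE 0.13, edgeR adjusted p = 0.962).

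*Mymx* was the least abundant of the 3. Its WT libraries had 8.96, 8.75, 9.48, 10.7 and 14.3 CPM, and its *mEC1*dup/dup libraries had 12.4, 8.21, 11.1, 10.1 and 14.9 CPM. Both the lowest and the highest library belong to *mEC1*dup/dup, and WT replicate 5 again stands above the other WT embryos. Mean levels were 10.5 ± 2.31 CPM in WT and 11.3 ± 2.51 CPM in *mEC1*dup/dup (SD, n = 5 each). *Mymx* thus had a log2 fold change of 0.12 (SE 0.17, edgeR adjusted p = 0.796). These values rest on 149 to 275 counts per library, against 515 to 852 for *Mymk* and 662 to 1164 for *Cdh15*.

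*Cdh15* had 43.5, 39.5, 43.4, 48.1 and 64.5 CPM in WT and 53.6, 44.4, 44.3, 35.7 and 56.0 CPM in *mEC1*dup/dup. WT replicate 5 was the highest library and *mEC1*dup/dup replicate 4 the lowest, and the others are mixed between the genotypes. The means were 47.8 ± 9.80 and 46.8 ± 8.15 CPM (SD, n = 5 each), and the log2 fold change was -0.03 (SE 0.14, edgeR adjusted p = 0.941).

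**Figure D1:**
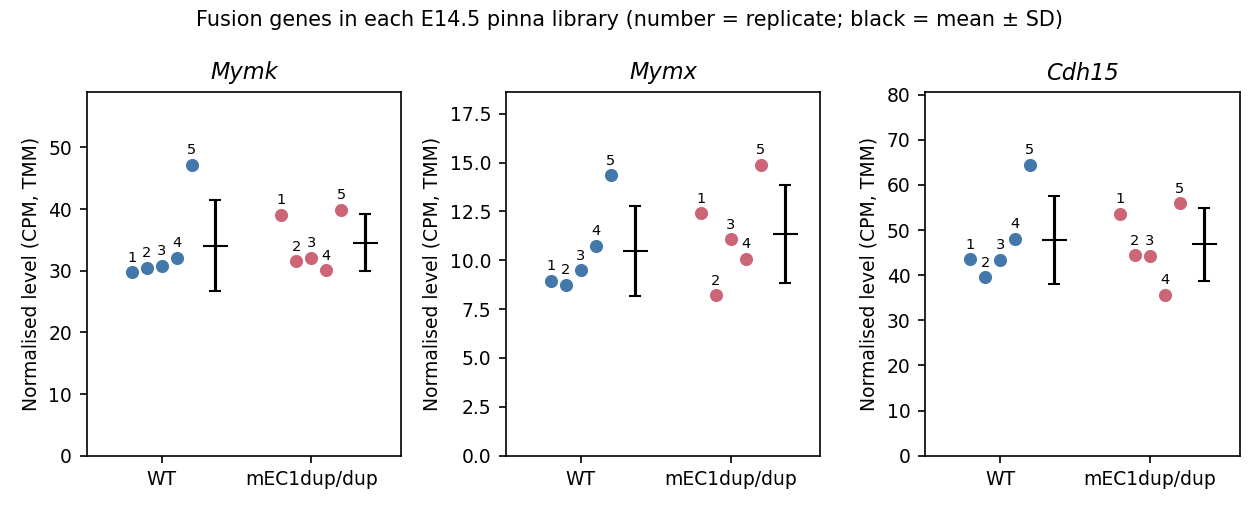
Normalised level of each fusion gene in CPM (vertical axis, from 0) in the 5 WT and the 5 *mEC1*dup/dup libraries; points are libraries numbered by replicate, and the black bar is the mean with its SD. The groups overlap in each panel, and WT replicate 5 is the highest WT library for *Mymk* (47.2 CPM), *Mymx* (14.3 CPM) and *Cdh15* (64.5 CPM).

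A call here needs an adjusted p of at most 0.05 by edgeR's quasi-likelihood test and a mean log2 CPM of 1 or more. By that rule 0 of the 3 fusion genes were called, against 1.81% of all genes tested called lower in *mEC1*dup/dup, 0.834% called higher and 2.64% called either way, and 0 of the 3 had an unadjusted p under 0.05. DESeq2's Wald test and limma-voom also called 0 of the 3. A missed threshold does not show equal levels, so the intervals matter. The 95% interval of the fold of *mEC1*dup/dup over WT was 0.836 to 1.23 for *Mymk*, 0.842 to 1.39 for *Mymx* and 0.796 to 1.20 for *Cdh15*. Folds beyond these bounds lie outside the intervals. The size of change that 5 embryos per group could detect was not tested.

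WT replicate 5 set much of the spread. Without it, the log2 fold changes were 0.16 for *Mymk* (SE 0.09, edgeR adjusted p = 0.419), 0.26 for *Mymx* (adjusted p = 0.485) and 0.10 for *Cdh15* (adjusted p = 0.747), so the sign of *Cdh15* turned and no gene was called. That embryo's summed level of 17 products of the myofibre was 4159 CPM, against 2701 to 3201 CPM in the other WT embryos. In a fit that also held the level of *Xist*, the same genes came to 0.19, 0.46 and 0.15 on the log2 scale, at adjusted p from 0.581 to 0.873. With the globin share in its place they came to -0.56, -0.28 and -0.58 (SE 0.55, 0.74 and 0.59, adjusted p from 0.910 to 0.965), so *Mymk* and *Mymx* turned in sign, and all 3 lay below the intervals given above. In *mEC1*dup/dup replicate 5, the embryo of its group without *Xist* counts, *Mymk*, *Mymx* and *Cdh15* were each at the highest level of the 5 *mEC1*dup/dup libraries.

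Per length, in CPM per kilobase of exon, the order of the levels was *Mymk*, then *Cdh15*, then *Mymx* in each of the 10 libraries. *Mymk* was at 21.7 ± 4.70 in WT and 22.0 ± 2.93 in *mEC1*dup/dup, *Cdh15* at 9.22 ± 1.89 and 9.03 ± 1.57, and *Mymx* at 6.0 ± 1.32 and 6.50 ± 1.44 CPM per kilobase (SD, n = 5 each). The group ranges of *Mymk* and *Cdh15* do not meet. Those of *Cdh15* and *Mymx* do: the most *Mymx*-rich embryo had more than the least *Cdh15*-rich one, and only within an embryo is the order fixed. On the same scale *Myod1* was at 27.7 and *Myog* at 65.8 CPM per kilobase in WT.

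The proportions among the 3 genes held across the genotypes within their spread. The log2 ratio of *Mymk* to *Mymx*, per length, was 1.86 ± 0.08 in WT and 1.78 ± 0.20 in *mEC1*dup/dup (SD, n = 5 each). That of *Mymk* to *Cdh15* was 1.23 ± 0.08 and 1.29 ± 0.10, and that of *Mymx* to *Cdh15* was -0.62 ± 0.05 and -0.48 ± 0.24. Two-sided exact permutation tests of these 3 ratios, added after the values had been seen, gave p = 0.421, 0.381 and 0.230 in that order, and 0.421 for each after Benjamini-Hochberg adjustment over the 3. From embryo to embryo the genes went up and down together. Over the 10 libraries Pearson's r of log2 CPM was 0.929 for *Mymk* with *Cdh15* (rho 0.915), 0.875 for *Mymk* with *Mymx* (rho 0.794) and 0.802 for *Mymx* with *Cdh15* (rho 0.697). Permutation p-values for r, adjusted over the 3 pairs, were 0.000360, 0.00144 and 0.00513, and those for rho were 0.00177, 0.0124 and 0.0301. With WT replicate 5 and *mEC1*dup/dup replicate 5 left out, r was 0.803, 0.740 and 0.531, so the relation of *Mymx* with *Cdh15* rests the most on those embryos. The pooled r of deviations from the genotype means was 0.938, 0.881 and 0.831. All points share the muscle content of a dissected prominence, and in bulk tissue fewer cells of a type and less RNA per cell cannot be told apart.

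Among the other adhesion and membrane proteins of fusion, *Cd9* and *Tmem182* were lower in *mEC1*dup/dup. The list holds immunoglobulin-family receptors, integrins, tetraspanins and cadherins, and 15 of its 16 genes were tested (*Nphs1*, nephrin, had 12 counts over the WT and 13 over the *mEC1*dup/dup libraries). Of these 15, 2 were called lower (against 1.81% of all genes tested) and 0 higher, 7 had an unadjusted p under 0.05 (46.7% against 16.2% of all genes tested), and the median log2 fold change was -0.01, against -0.00415 over all genes tested. *Cd9*, a tetraspanin that is also made by many cells outside muscle, had 53.4, 52.4, 44.8, 45.8 and 42.4 CPM in WT and 35.4, 36.3, 34.9, 34.5 and 33.5 CPM in *mEC1*dup/dup. Every *mEC1*dup/dup library lies below every WT library, and *Cd9* fell by 0.45 on the log2 scale (SE 0.07, edgeR adjusted p = 0.00518). The call was kept with each of the 10 libraries left out and lost with *Xist* as a covariate (-0.52, SE 0.11, adjusted p = 0.170) or with the globin share (-0.12, SE 0.28, adjusted p = 0.959).

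*Tmem182*, a muscle membrane protein known to restrain fusion, had 6.12, 7.03, 6.68, 7.53 and 11.6 CPM in WT and 5.09, 4.79, 4.62, 3.18 and 5.09 CPM in *mEC1*dup/dup. It fell by 0.78 (SE 0.19, edgeR adjusted p = 0.0459), with no overlap, which 2.75% of all genes tested showed in this direction. The call was lost when any library but WT replicate 4 was left out, with log2 fold changes from -0.85 to -0.59, and with *Xist* (-0.70) or the globin share (-2.15) as a covariate. The rest of the list did not pass the test. *Cdh2* (N-cadherin, which shares the role of *Cdh15* in myoblast adhesion) was at a log2 fold change of 0.21 (adjusted p = 0.141) and was called without WT replicate 4 alone. *Cdon* and *Boc*, receptors that bind cadherins at sites of contact, were at 0.02 and -0.00 (adjusted p = 0.954 and 0.995). *Jam2* and *Jam3*, junctional adhesion molecules, were at -0.19 and 0.10 (adjusted p = 0.248 and 0.558).

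Inside the cell, fusion needs remodelling of actin under the contact site and repair proteins of the membrane. A list of 18 genes tested, the actin and receptor list, held such genes. It also held receptors (*Adgrb1*, *Adgrb3*, *Stab2*, *Il4ra*) and the transcription factor gene *Nfatc2*. Of these 18, 6 had an unadjusted p under 0.05 (33.3% against 16.2% of all genes tested), and the median log2 fold change was 0.01. The edgeR test called 0 in either direction. DESeq2's Wald test called 1 lower and 1 higher. *Dock1* and *Dock5*, exchange factors that load RAC1, were at 0.11 and -0.12 (adjusted p = 0.228 and 0.415), and *Rac1* itself was at -0.01 (adjusted p = 0.957). In WT *Rac1* had a mean of 407 CPM, and *Itgb1* and *Cdon* of the adhesion list 559 and 306 CPM, against 34.1 CPM for *Mymk*. Bulk levels hold the message of all cells of the prominence, so for both lists they do not show the level in myoblasts. The extremes of the list, named after their values were seen, were *Cav3* (caveolin of muscle) at -0.62 with an adjusted p of 0.114 and *Stab2* at 0.22, a gene below 1 CPM in both groups.

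Among relatives of the 3 genes, *Tmem8b* and *Pgap6*, which share the membrane protein family of *Mymk*, were not called. *Tmem8b* was at 45.0 ± 3.98 CPM in WT and 50.8 ± 1.80 CPM in *mEC1*dup/dup (SD, n = 5 each). Its log2 fold change was 0.18 (edgeR adjusted p = 0.163), without overlap, which 2.33% of all genes tested showed in this direction. *Pgap6* was at -0.24 (adjusted p = 0.455). Of 7 other cadherins, most of them from tissues other than muscle, 1 was called: *Cdh4* (R-cadherin), named after its value was seen, was higher by 0.29 (adjusted p = 0.0378), where 0.834% of all genes tested were called higher. Its call was lost with *Xist* (0.17, adjusted p = 0.636) or the globin share (-0.05, adjusted p = 0.983) as a covariate. The median of the 7 was 0.02.

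**Figure D2:**
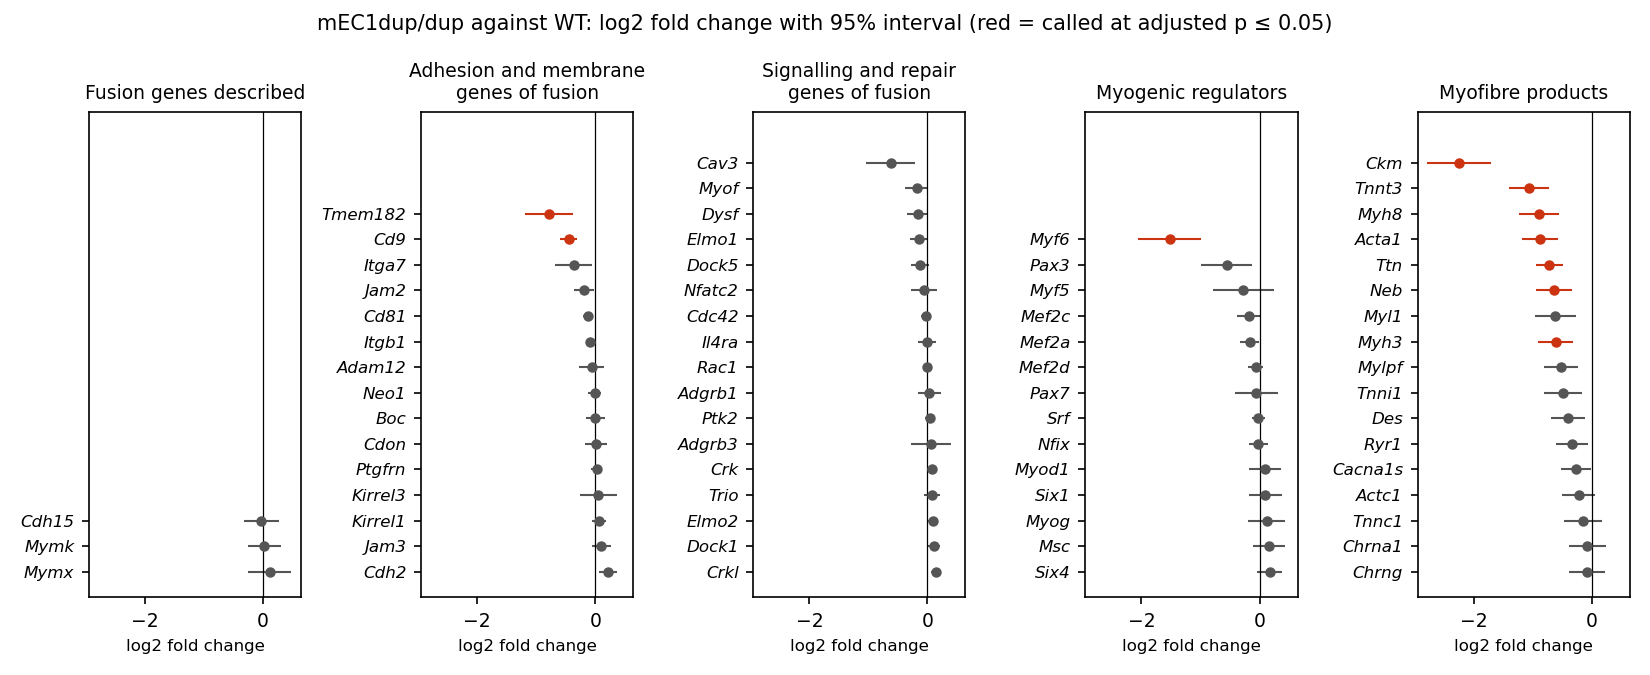
Log2 fold change of *mEC1*dup/dup over WT (horizontal axis, same scale in each panel) with its 95% interval, for the 3 fusion genes and 4 lists of genes of fusion and of muscle, some also made outside muscle; red marks the genes called lower, and *Stab2* and *Tcf21* are left out because of their low levels. The 3 fusion genes lie between -0.03 and 0.12, while 7 of 17 myofibre products were called lower.

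Among the transcription factors that regulate muscle, 1 gene was called. Of 15 myogenic regulators tested, 1 was called lower (against 1.81% of all genes) and 0 higher, 3 had an unadjusted p under 0.05 (against 16.2% of all genes), and the median log2 fold change was -0.06. The values that were not called ran from -0.56 for *Pax3* (adjusted p = 0.179), of migrating muscle precursors and named after its value was seen, to 0.17. *Pax7*, of the precursor pool, was at -0.06 (edgeR adjusted p = 0.901) and *Myf5*, of early myoblasts, at -0.27 (adjusted p = 0.641). *Myod1* was at 52.4 ± 10.4 and 55.8 ± 7.64 CPM in the WT and *mEC1*dup/dup groups (SD, n = 5 each), for a log2 fold change of 0.09 (SE 0.12, adjusted p = 0.786). *Myog* was at 99.7 ± 20.7 and 108 ± 20.7 CPM, a log2 fold change of 0.12 (SE 0.14, adjusted p = 0.745). *Mef2c*, a partner of both, was at -0.18 (adjusted p = 0.361).

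The gene called was *Myf6*, which encodes MRF4, the member of the MYOD family that is used late, in the formed fibre. It had 3.87, 2.55, 3.70, 4.38 and 4.71 CPM in WT and 1.89, 0.992, 1.09, 0.917 and 1.79 CPM in *mEC1*dup/dup. All 5 *mEC1*dup/dup embryos lie below all 5 WT embryos, and *Myf6* fell by 1.52 on the log2 scale (SE 0.24, edgeR adjusted p = 0.00804). The call was kept with each of the 10 libraries left out and lost with *Xist* as a covariate (-1.19, SE 0.39, adjusted p = 0.385) or with the globin share (-1.58, SE 1.03, adjusted p = 0.899).

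Among the products of the formed myofibre, 7 genes were lower in *mEC1*dup/dup. Of 17 such genes tested, these 7 were called lower (against 1.81% of all genes tested) and 0 higher, all 17 had a negative log2 fold change, and the median was -0.52. With *Xist* or the globin share as a covariate 0 of the 17 were called. The 7 genes then had log2 fold changes from -1.85 to -0.58 with *Xist* (edgeR adjusted p from 0.197 to 0.451) and from -2.60 to -0.69 with the globin share (adjusted p = 0.899 for each). *Ckm*, the muscle creatine kinase, had 26.8, 23.9, 24.1, 30.9 and 33.3 CPM in WT and 7.20, 5.73, 5.32, 2.10 and 8.93 CPM in *mEC1*dup/dup. The groups are far apart, and *Ckm* fell by 2.25 (SE 0.25, edgeR adjusted p = 0.00126). The other 6 encode parts of the sarcomere, the contractile unit. *Tnnt3* (fast troponin T) fell by 1.06, *Myh8* (perinatal myosin heavy chain) by 0.90, *Acta1* (skeletal actin) by 0.88, *Ttn* (titin) by 0.72, *Neb* (nebulin) by 0.64 and *Myh3* (embryonic myosin heavy chain) by 0.61, at adjusted p from 0.00563 to 0.0331. *Neb* and *Myh3* lost the call when any of WT replicates 1, 3 and 5 or *mEC1*dup/dup replicates 2 to 5 was left out. With a library left out, their log2 fold changes ranged from -0.77 to -0.54 (*Neb*) and from -0.71 to -0.51 (*Myh3*). The other 5 kept the call with each library left out, though not with either covariate.

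Within the myofibre list the size of the difference varied. The 10 genes that were not called ran from -0.62 for *Myl1* (a myosin light chain, adjusted p = 0.0618) to -0.08. *Tnni1* (slow troponin I) was at -0.48 (adjusted p = 0.110), *Des* (desmin) at -0.40 (adjusted p = 0.140) and *Actc1* (cardiac actin, which embryonic muscle also makes) at -0.22 (adjusted p = 0.433). *Chrna1* and *Chrng*, subunits of the embryonic acetylcholine receptor, were both at -0.08 (SE 0.14 each, adjusted p = 0.845 and 0.840). Of these, *Myl1*, *Tnni1* and *Des* were named after their values were seen. The sum of all 17 was 2701 to 4159 CPM in WT and 1687 to 2688 CPM in *mEC1*dup/dup, without overlap. That of the 15 regulators was 1154 to 1346 and 1135 to 1279 CPM, and that of the 3 fusion genes 78.8 to 126 and 75.8 to 111 CPM. The largest part of the regulator sum is *Nfix* (means 439 and 433 CPM). The sum therefore says little about members of low level such as *Myf6* (means 3.84 and 1.33 CPM).

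**Figure D3:**
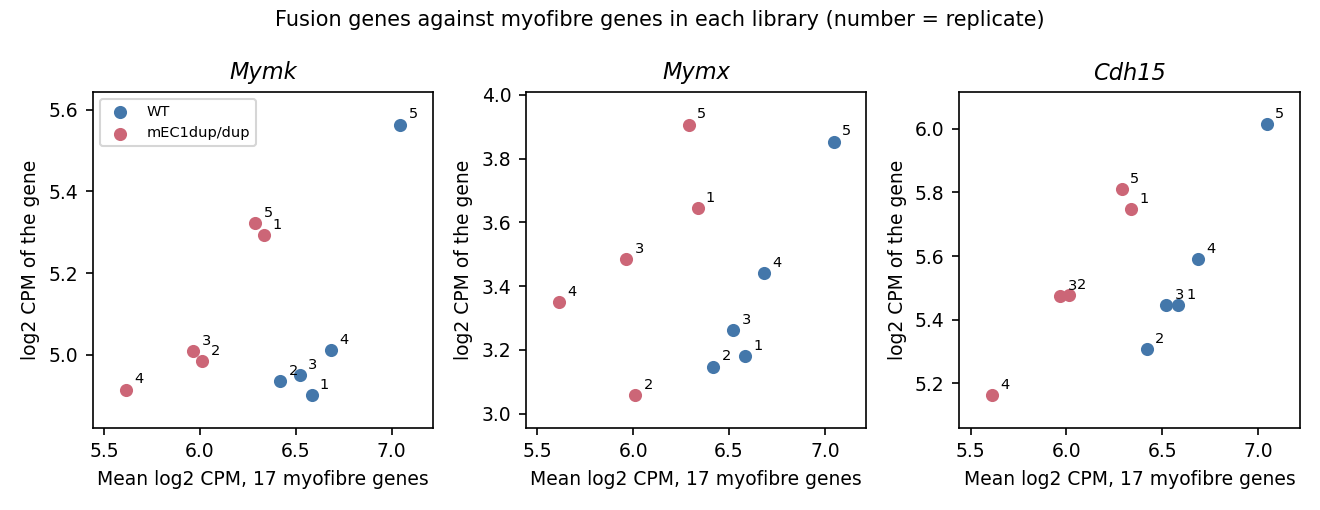
Log2 CPM of each fusion gene (vertical axis) against the mean log2 CPM of 17 myofibre products (horizontal axis) in the 10 libraries, numbered by replicate. Within each colour the libraries with more fibre message, such as WT replicate 5, tend to hold more fusion gene message, and the *mEC1*dup/dup points lie to the left of the WT points at like heights.

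Set against the myofibre list in the same embryo, each fusion gene was at a higher value in *mEC1*dup/dup. The quantity here is the gene's log2 CPM minus the mean log2 CPM of the list. For *Mymk* it was -1.58 ± 0.10 in WT (range -1.68 to -1.48) and -0.94 ± 0.14 in *mEC1*dup/dup (range -1.04 to -0.70), a difference of 0.64. For *Mymx* it was -3.27 ± 0.08 in WT (range -3.40 to -3.19) and -2.55 ± 0.27 in *mEC1*dup/dup (range -2.95 to -2.26), a difference of 0.72. For *Cdh15* it was -1.09 ± 0.04 (range -1.14 to -1.03) and -0.51 ± 0.05 (range -0.59 to -0.45), a difference of 0.58 (SD, n = 5 each). The groups do not overlap for any of the 3. These values are a description, since the list was chosen with earlier results of these data known and 7 of its 17 genes were called lower.

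Most of the difference lies in the denominator, beside log2 fold changes of 0.02, 0.12 and -0.03 in the fusion genes themselves. In *mEC1*dup/dup replicate 5, which had no *Xist* counts, the values were -0.97, -2.38 and -0.48. The spread of *Cdh15* against the list is narrow, at 0.04 and 0.05 on the log2 scale, where the coefficient of variation of its own level was 20.5% and 17.4%. Within a genotype *Cdh15* therefore followed the fibre genes closely from embryo to embryo.

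Against the regulators the differences were smaller. *Mymk* was at 0.16 ± 0.18 in WT and 0.35 ± 0.03 in *mEC1*dup/dup, *Mymx* at -1.54 ± 0.20 and -1.26 ± 0.22, and *Cdh15* at 0.65 ± 0.17 and 0.78 ± 0.11 (SD, n = 5 each). Two-sided exact permutation tests gave p = 0.0476, 0.0714 and 0.167, and none passed after adjustment over the 6 ratios computed (0.0714, 0.0857 and 0.167). These 6 include the 3 against the myofibre list, given above as a description, whose lower p-values ease the adjustment. The regulator list was also chosen with earlier results of these data known. It holds *Myf6*, called lower (log2 fold change -1.52), which lowers the list mean in *mEC1*dup/dup, so these p-values decide nothing about the fusion genes. Against the regulators the groups overlap for all 3 genes, with WT replicate 5 the highest library for *Mymk* and *Cdh15*. With the median of the list in place of its mean, the difference was -0.05 for *Mymk*, 0.03 for *Mymx* and -0.11 for *Cdh15*, so no direction holds for *Mymk* and *Cdh15*.

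**Figure D4:**
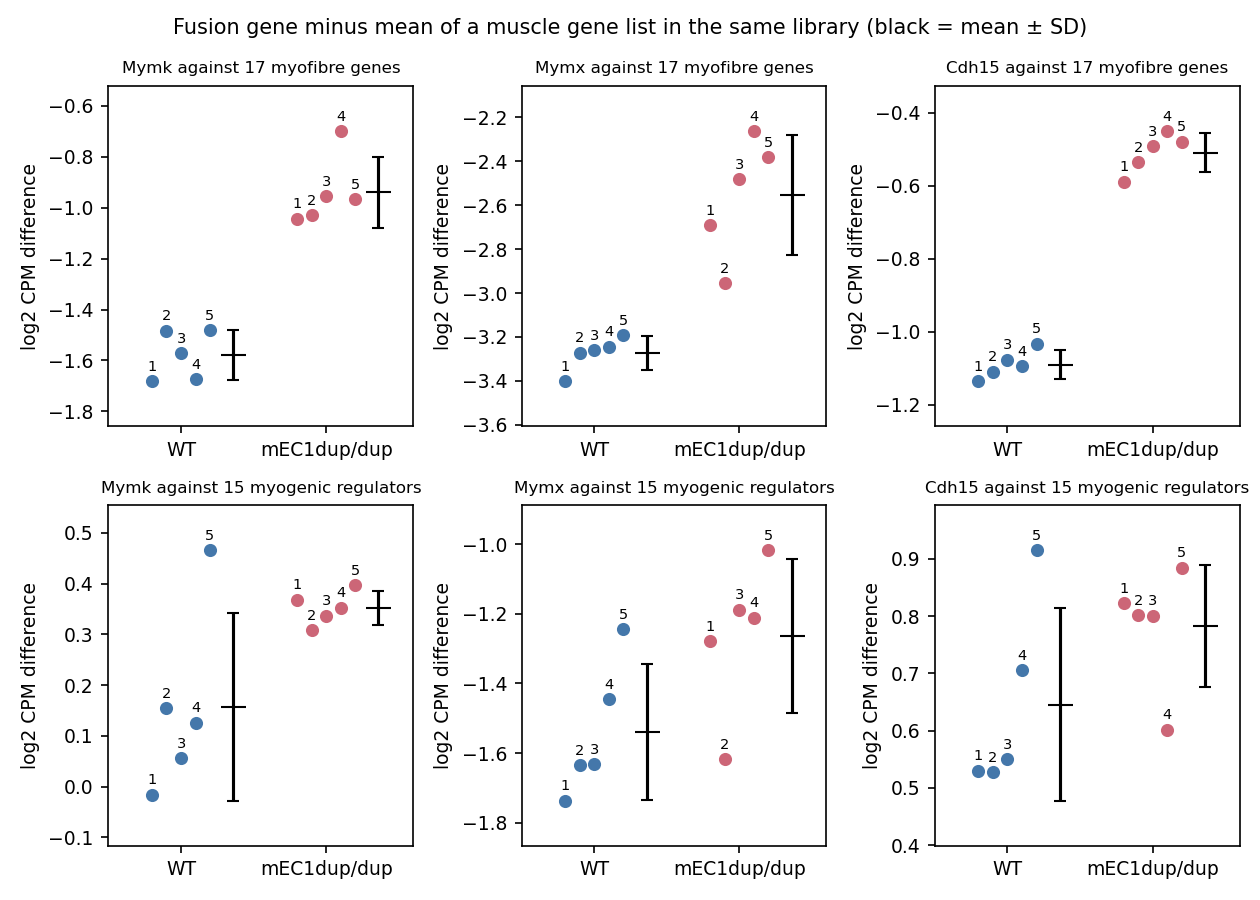
Log2 CPM of a fusion gene minus the mean log2 CPM of a muscle gene list in the same library (vertical axis, its own scale in each panel) for WT and *mEC1*dup/dup; points are libraries numbered by replicate, with mean and SD in black. In the upper row, against 17 myofibre products, the genotypes do not overlap for *Mymk*, *Mymx* or *Cdh15*, and in the lower row, against 15 regulators, they do.

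For each fusion gene the 5 genes with the most similar log2 CPM over the 10 libraries were found by Pearson's r. For *Cdh15* they were *Mybph* (a myosin-binding protein of the sarcomere, r = 0.979), *Fndc5* (0.958), *Chrna1* (0.950), *Chrng* (0.939) and *Fam78a* (0.934). For *Mymk* they were *Rbm24* (a muscle splicing regulator, 0.943), *Cdh15* (0.929), ENSMUSG00000105444 (0.919), *Myod1* (0.910) and *Acta2* (smooth muscle actin, which immature skeletal muscle also makes, 0.903). For *Mymx* they were *Kiz* (0.934), *Ctif* (0.919), *Mrps15* (0.919), *Rbm24* (0.907) and *Gm27219* (0.904), most of which are not muscle genes. These r are descriptions, the highest of 16426 genes over only 10 libraries, and for *Mymx* they rest on the lowest counts of the 3. None of the genes named was called, and the 5 for *Cdh15* had log2 fold changes from -0.08 to 0.01.

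The tested genes next to the 3 loci were not called either. *Adamtsl2*, whose span holds *Mymk*, was at 0.14 (edgeR adjusted p = 0.509) and *Fam163b* on its other side at -0.12 (adjusted p = 0.889). *Slc29a1*, whose span lies 505 bases from *Mymx*, was at -0.06 (adjusted p = 0.780) and *Tmem63b* at -0.07 (adjusted p = 0.514). *Acsf3* and *Ankrd11* beside *Cdh15* were at 0.07 and 0.04 (adjusted p = 0.619 and 0.754).

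Markers of the other cell types in the prominence give the setting of these muscle values. Of 6 fibroblast genes, 2 were called lower (*Dpt* and *Lum*, against 1.81% of all genes tested), and their sum was 8892 to 14880 CPM in WT and 9361 to 10778 CPM in *mEC1*dup/dup. Of 5 epidermal genes, 2 were called lower (*Krt5* and *Krt14*, against the same 1.81%), with sums of 649 to 1134 and 520 to 686 CPM. Of 5 cartilage genes 0 were called, and *mEC1*dup/dup replicate 1 had the lowest sum, 2050 CPM, against 4420 to 7598 CPM in the other 9 libraries. None of the 4 fibroblast and epidermal calls was kept with either covariate. The log2 fold changes of *Dpt*, *Lum*, *Krt5* and *Krt14* were -0.77, -0.30, -0.69 and -0.64 in the main fit. With *Xist* they were -0.60, -0.37, -0.80 and -0.78. With the globin share *Dpt* (0.33), *Krt5* (0.64) and *Krt14* (0.71) turned in sign, and *Lum* was at -0.17. Endothelial genes (414 to 524 and 437 to 498 CPM), glial and melanocyte genes (185 to 211 and 146 to 215 CPM) and definitive erythroid genes (992 to 1551 and 956 to 1988 CPM) gave 0 calls. An unadjusted edgeR p under 0.05 was found for 66.7% of the fibroblast, 80% of the epidermal and 40% of the cartilage genes. The shares were 20% for endothelial, 33.3% for glial and melanocyte and 0% for erythroid genes, against 16.2% of all genes tested. The part of tissue composition in the lower myofibre products was not tested.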

How the data were processed

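RNA of E14.5 pinna prominences from 5 WT and 5 *mEC1*dup/dup embryos was analysed. The authors used fastp for trimming, STAR for alignment to GRCm39 and featureCounts for counting per gene, and deposited the raw counts. The labels and the methods name different library kits, neither of which marks strand. Symbols, positions and exon lengths came from GENCODE vM39, which matched 49355 identifiers. The unmatched genes held 0.111% of counts. All genes were filtered (filterByExpr), normalized by TMM and tested with edgeR (version 4.0.16, glmQLFTest, R 4.3.3) by genotype, with Benjamini-Hochberg adjustment over 16426 genes. The standard error is the log2 fold change divided by the square root of F. Log2 CPM used a prior count of 2. Intervals cover the spread between these embryos, and reads carry no molecular identifiers. Chi-square per degree of freedom between libraries of one genotype was 2.55 to 18.2, so none was a copy. The steps were tested on simulated data. Alternatives used DESeq2 (1.42.0), limma-voom (limma 3.58.1), other scalings and filters, a replicate block, covariates, and each library left out. Genes named are the 3 members, called members of 4 lists of fusion and muscle genes, chosen genes of these lists, relatives, the 5 genes most like each member and its neighbours. Also named are *Hmx1*, *Xist*, the embryonic globins, called markers of other cell types, and genes marked as named after their values were seen. The genes and lists were chosen with earlier results of these data known. Figures were drawn with matplotlib 3.10.9.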

Additional observations from a re-analysis of the deposited data

Results flagged for a closer look

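A Dixon test of the highest and lowest library in each genotype was run on 72 sets of 5 values, and 8 stood out, where chance gives about 1 in 20. WT replicate 5 had 47.2 CPM of *Mymk* against 29.8 to 32.1 CPM in the other WT embryos (gap over range 0.864). The same embryo stood out for *Tmem182*, at 11.6 against 6.12 to 7.53 CPM (0.744), and for *Tnnt3*, at 108 against 75.0 to 82.5 CPM (0.775). It was low for *Tmem8b*, at 38.0 against 45.3 to 47.5 CPM (0.771).

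In *mEC1*dup/dup, replicate 4 was low for *Tmem182*, at 3.18 against 4.62 to 5.09 CPM (0.752), and for *Tmem8b*, at 47.6 against 51.0 to 52.0 CPM (0.766). Replicate 4 was also high for *Mymk* relative to the myofibre list, at -0.70 against -1.04 to -0.96 (0.746). Replicate 1 was low for *Pgap6*, at 4.40 against 6.25 to 6.63 CPM (0.826).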

How the results depend on the processing

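No fusion gene was called under any of the 21 alternatives. With a library left out, log2 fold changes ranged from -0.0403 to 0.16 (*Mymk*), -0.00330 to 0.26 (*Mymx*) and -0.11 to 0.10 (*Cdh15*). Signs turned for *Cdh15* with *Xist* as covariate (0.15) and for *Mymk* (-0.56) and *Mymx* (-0.28) with the embryonic globin share, which is confounded with genotype and left *Cdh15* at -0.58, with standard errors of up to 0.74. With *Xist*, genes called fell to 1 lower and 2 higher (1534 with unadjusted p under 0.05), and with the globin share to 0 and 0 (792). In both fits 0 adhesion genes, 0 regulators and 0 myofibre products were called. DESeq2's Wald test called 510 genes lower and 321 higher, and in the actin and receptor list 1 lower and 1 higher. Scaling to total counts called 1 gene of the actin and receptor list higher. Limma-voom called 1 adhesion gene lower. Leaving out libraries gave 120 to 476 genes lower and 34 to 179 higher. Among adhesion genes it gave 1 to 2 lower and 0 to 1 higher. It gave 0 to 1 genes of the actin and receptor list lower, and 5 to 9 myofibre products lower. The list median reversed *Mymk* (-0.0488) and *Cdh15* (-0.11) against regulators. Leaving out libraries gave differences of 0.15 to 0.27 (*Mymk*), 0.21 to 0.36 (*Mymx*) and 0.11 to 0.20 (*Cdh15*) against regulators, at exact permutation p of 0.00794 to 0.119, 0.0238 to 0.143 and 0.0238 to 0.294, and 0.58 to 0.67, 0.65 to 0.82 and 0.57 to 0.60 against myofibre products. The p-values against regulators decide nothing, since that list holds *Myf6*, called lower. The cause of these shifts was not tested. The replicate block gave *Mymk* 0.03, *Mymx* 0.11 and *Cdh15* -0.03. It gave 487 genes and 11 myofibre products lower, and 1 gene of the actin and receptor list higher. As exact sign flips, where 5 pairs allow no p below 0.0625, it gave p = 0.125 for *Mymk* against regulators (0.20). Those against myofibre products, 0.64 for *Mymk*, 0.72 for *Mymx* and 0.58 for *Cdh15*, are a description and carry no p. The differences themselves cannot move in this balanced design. Same-numbered libraries 1 to 5 correlated at -0.0558, 0.140, 0.177, 0.345 and 0.205. Their mean was 0.162, against -0.0403 for libraries of different numbers. Not every library matched its own number best, so the numbers were not taken as pairs.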
